A study of Mus musculus with 4 samples.

Results

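The prolactin receptor and STAT5 pathway was taken as 9 genes chosen by symbol, and all 9 were found among the 54532 genes of the deposited count tables. They are the receptor genes Prlr and Ghr, the kinase gene Jak2, the transcription factor genes Stat5a, Stat5b, Elf5 and Nfib, and the feedback inhibitor genes Cish and Socs2. All 9 passed the filter on low counts. The counts come from RNA sequencing of 4 libraries from C57BL/6 mice with MMTV-PyMT tumours, in which the mammary tumour virus promoter drives the polyoma middle T antigen in mammary epithelium. The source label of every library reads Dll1 mcherry+, and the tissue label names primary breast cancer-associated fibroblasts. Unirradiated libraries A and B received no radiation, and irradiated libraries A and B came from tumours given 6 Gy of targeted radiation, per the design text. All 4 titles carry 6D, and the treatment label of the irradiated libraries names day 6. Tumours were digested with enzymes and an antibody to PDGFRa served to detect fibroblasts. The animals' age, the number of animals behind a library and the interval from radiation to collection are not given in the labels, and A and B are not stated to be separate animals. The p-values therefore rest on differences between libraries that may be technical repeats.

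Prolactin and growth hormone act on related cytokine receptors that have no kinase domain of their own and rely on the associated Janus kinase JAK2. JAK2 phosphorylates STAT5A and STAT5B, which pair, enter the nucleus and bind palindromic DNA elements at target genes, among them milk protein genes of the mammary gland and the feedback genes Cish and Socs2. In the mammary epithelium STAT5A is the major form, ELF5 is an ETS factor that specifies milk-producing alveolar cells, and NFIB is a nuclear factor I protein that shares milk gene enhancers with STAT5. Transcript levels do not show how much STAT5 is phosphorylated.

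The preferred STAT5 element, TTCNNNGAA, reads the same on both strands and was searched in promoter windows of 300 bases from RefSeq (GRCm38.p6, the build of the mm10 files), which run from 250 bases before to 50 after a start site. Of 32851 such windows, 8.30% held it. RefSeq promoters were matched for 7 members with 13 windows, of which 2 windows of 2 members held the motif, one of 3 windows of Prlr and the single window of Cish. These 2 windows are shown because they hold the motif, beside the windows of the prolactin target genes Csn2 and Csn1s1, with the motif in capitals. Socs2, Nfib and the casein gene Csn3 were not matched. A match is a description of the letters and not evidence of binding.
Prlr, second start site in genome order, chr15:10223736-10223834, + strand: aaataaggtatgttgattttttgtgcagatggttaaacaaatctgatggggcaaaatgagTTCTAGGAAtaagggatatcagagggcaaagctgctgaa
Cish, chr9:107296599-107296678, + strand: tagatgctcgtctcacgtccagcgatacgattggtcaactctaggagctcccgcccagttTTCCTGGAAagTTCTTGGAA
Csn2, beta-casein, chr5:87699480-87699578, - strand: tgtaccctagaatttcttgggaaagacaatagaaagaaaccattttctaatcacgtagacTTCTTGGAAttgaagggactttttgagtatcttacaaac
Csn1s1, alpha-s1-casein, chr5:87666048-87666146, + strand: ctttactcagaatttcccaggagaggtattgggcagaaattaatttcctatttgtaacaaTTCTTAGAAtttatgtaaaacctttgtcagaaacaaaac
The motif begins 110 bases before the start site in Prlr, 93 before it in Csn2 and 100 before it in Csn1s1. In Cish a pair of motifs begins at bases 1 and 12 of the transcribed region. Jak2, Ghr, Stat5a, Stat5b and Elf5 had no match in their windows. Of the 4 milk genes with a window, Wap had no match, and Csn1s2a had its match at base 21 of the transcribed region rather than before the start site, so neither is shown.

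Total counts ranged from 13011489 to 23763830 per library, and levels are given as CPM, the counts scaled to a common library size with TMM factors. Genes were tested with edgeR's quasi-likelihood test and called at an adjusted p (Benjamini-Hochberg over 15961 tested genes) under 0.05. The comparison of the series is between irradiated and unirradiated libraries. Of all tested genes 33.9% were called higher, 32.5% lower and 66.4% in either direction, so a call alone sets no gene apart. Epithelial transcripts were abundant under the fibroblast label. The sum of 10 epithelial markers was 9111 ± 1.53 CPM without and 8501 ± 226 CPM with radiation (SD, n = 2), against 525 ± 25.7 and 1706 ± 11.3 CPM for 12 fibroblast markers.

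Among the members, transcripts of the prolactin receptor rose the most, those of Cish and Jak2 rose less, and those of Stat5a fell, while Elf5 and Stat5b did not pass the test. Called higher were 6 of 9 members (Prlr, Cish, Jak2, Ghr, Nfib and Socs2) and 1 was called lower, which together is 7 of 9 beside the background of 66.4%. The median log2 fold change of the members was 0.14, against -0.0042 over all tested genes. The CPM of the groups did not overlap for 8 of 9 members, and the same held for 82.5% of tested genes. Rises of Ghr, Nfib and Socs2 were small, and they turned to values below 0 when a trend of the fold changes with gene length and GC content was removed. Under that setting 3 of 9 members were higher (Prlr, Cish and Jak2) and 3 lower (Stat5a, Nfib and Socs2), beside 32.8% higher and 30.0% lower of all tested genes, so these counts lie near the background. In a test for changes beyond 1.5-fold, 1 member was higher (Prlr) and 1 lower (Stat5a), beside 12.7% and 11.0% of all tested genes.

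**Figure D1:**
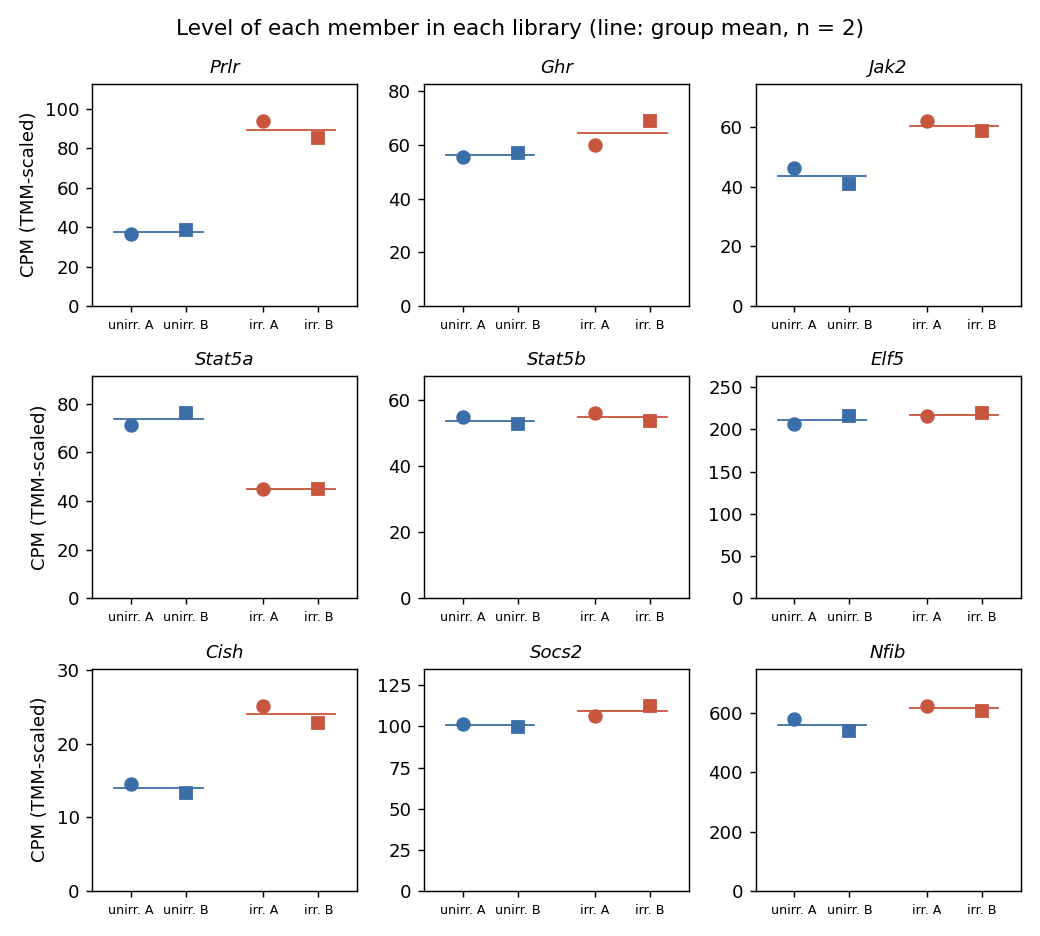
Level of each of the 9 members in each library, in TMM-scaled CPM on an axis from 0, with circles for A, squares for B and a line at each group mean (n = 2). Prlr, Jak2 and Cish are higher and Stat5a is lower in both irradiated libraries, while the levels of Stat5b overlap between the groups.

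Prlr (chromosome 15, 10177238 to 10349180), which encodes the receptor for prolactin, was at 36.4 and 38.8 CPM in unirradiated A and B and at 94.1 and 85.1 CPM in irradiated A and B. Both irradiated libraries lay above both unirradiated ones by far more than the libraries of a group differed. The group means were 37.6 ± 1.67 and 89.6 ± 6.38 CPM (SD, n = 2), a 2.38-fold rise with a 95% interval of 2.16 to 2.63 (log2 fold change 1.25, SE 0.0704, edgeR adjusted p = 1.46e-24). Of all tested genes, 91.8% had a lower log2 fold change. In bulk samples a change in the number of cells of a type and a change in RNA per cell cannot be told apart. Prlr is among the longest genes tested, with 15339 exonic bases against a median of 3941, and across the 15961 tested genes longer genes had higher log2 fold changes (Spearman's rho 0.31, over genes, which are not independent replicates). With the trend with length and GC content removed, the log2 fold change of Prlr was 0.91 and remained past the threshold. Long and short receptor forms come from the same gene and are not separated by gene counts. In 203 bases, or 1.32% of its exons, Prlr shares sequence with the overlapping gene model Gm21973, which had 0 counts in every library.

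Ghr (chromosome 15, 3317760 to 3583492), the growth hormone receptor gene, was at 55.6 and 57.1 CPM in unirradiated A and B and at 60.1 and 69.0 CPM in irradiated A and B. The irradiated libraries lay above the unirradiated ones, but irradiated A stood closer to them than to irradiated B. The log2 fold change was 0.21 (SE 0.0692, edgeR adjusted p = 0.00709). This call was lost without irradiated B (0.10), without unirradiated A (0.19) and with DESeq2 (0.20), and the value was -0.11 once the length and GC trend was taken out. Per kilobase of gene length, the level of Prlr was 0.393 ± 0.010 of that of Ghr in the unirradiated and 0.826 ± 0.139 in the irradiated libraries (SD, n = 2). This length counts all annotated exon bases of a gene, which a transcript may hold only in part, so ratios between genes are approximate.

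Transcripts of the ligands were nearly absent. Prl, encoding prolactin, had 0 counts without radiation and 1 with it, and Gh, encoding growth hormone, had 2 and 1. A count of 0 allows up to 3 counts, or 0.171 CPM in unirradiated A and 0.231 CPM in unirradiated B before TMM scaling, which covers counting error only. Both hormones are made mainly by the pituitary. None of the 7 genes listed from the prolactin and growth hormone family passed the filter, and not all of them need encode ligands of these receptors. The highest was the prolactin family gene Prl2c3 with 0 and 11 counts, a gene with near-identical copies whose value is uncertain.

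Jak2 (chromosome 19, 29251828 to 29313080), the kinase that both receptors use, was at 46.2 and 40.9 CPM in unirradiated A and B and at 62.2 and 58.7 CPM in irradiated A and B. The groups did not overlap. Its rise was 1.38-fold with a 95% interval of 1.24 to 1.52 (log2 fold change 0.46, SE 0.0726, edgeR adjusted p = 1.15e-07), and the log2 fold change was 0.34 once the length and GC trend was taken out. Of the 8 other Janus kinase and STAT genes listed, 7 were tested (median log2 fold change -0.28). Of these, 2 (28.6%) were higher and 4 (57.1%) lower, beside 33.9% and 32.5% of all tested genes. Jak1, a kinase of interferon and interleukin receptors, rose from 107 ± 1.88 to 171 ± 3.14 CPM (0.67), whereas Jak3, the partner of the common gamma chain, fell from 80.6 ± 5.34 to 46.8 ± 3.2 CPM (-0.79). Stat2, which carries interferon signals, had a log2 fold change of -1.16.

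The paralogues Stat5a and Stat5b gave different values. Stat5a (chromosome 11, 100859351 to 100885169) was at 71.3 and 76.1 CPM in unirradiated A and B and at 44.8 and 45.1 CPM in irradiated A and B. Each irradiated library was well below each unirradiated one. The fall was 1.64-fold with a 95% interval of 1.49 to 1.80 (log2 fold change -0.71, SE 0.0678, edgeR adjusted p = 2.26e-14), and 16.4% of tested genes had a lower log2 fold change. The call held under all 14 alternatives, with values from -0.88 to -0.65. Among these, a looser threshold of 0.1 could not have removed it.

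Stat5b (chromosome 11, 100780731 to 100850724) lies next to Stat5a and was at 54.9 and 52.8 CPM in unirradiated A and B and at 56.1 and 53.6 CPM in irradiated A and B, so that the groups overlapped. Its log2 fold change was 0.02 (95% interval -0.12 to 0.16, edgeR adjusted p = 0.804), with values of -0.02 under upper-quartile scaling and -0.04 once the length and GC trend was taken out. Per kilobase of gene length, the ratio of Stat5a to Stat5b was 1.01 in unirradiated A, 1.12 in unirradiated B, 0.620 in irradiated A and 0.653 in irradiated B. Stat5a therefore made up 51.5 ± 1.82% of both in the unirradiated and 38.9 ± 0.876% in the irradiated libraries (SD, n = 2). The difference between the changes of the paralogues was not tested. With 2 against 2 libraries an exact two-sided permutation test of the ratio cannot give a p below 0.333. The genes are close copies. Of all 50-base stretches in GENCODE transcripts, 8.21% of those of Stat5a and 11% of those of Stat5b occur in the other gene, and reads from them may have been split or left uncounted. Stat5a also shares 72 exonic bases (1.01%) with Stat3 on the opposite strand, and the library kit did not mark strand. Stat3, named for this overlap, was at 407 ± 4.54 and 435 ± 13.5 CPM, with a log2 fold change of 0.10. Its call as higher was lost, among other settings, under upper-quartile scaling (0.05), with the stricter filter on low counts (0.08) and with DESeq2 (0.09). Once the length and GC trend was taken out the value was -0.11 and past the threshold in the other direction.

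**Figure D2:**
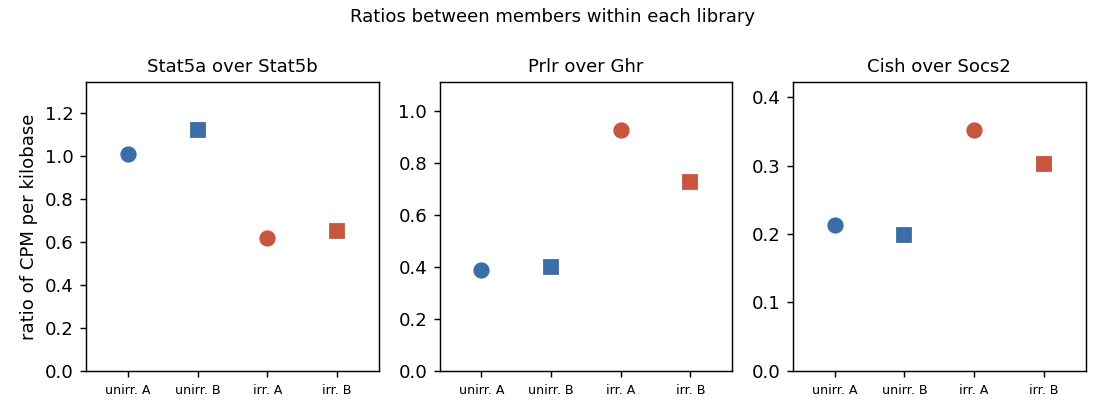
Ratios of levels per kilobase between pairs of members within each of the 4 libraries, on axes from 0. The ratio of Stat5a to Stat5b is lower in both irradiated libraries, and the ratios of Prlr to Ghr and of Cish to Socs2 are higher, with no overlap of the groups for any of the 3 pairs. The pairs were chosen after their values were seen, and the CPM of 82.5% of single tested genes did not overlap either.

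Elf5 (chromosome 2, 103411688 to 103450989) was at 206 and 216 CPM in unirradiated A and B and at 216 and 219 CPM in irradiated A and B. Unirradiated B and irradiated A were nearly equal. The log2 fold change was 0.05 (95% interval -0.05 to 0.14, edgeR adjusted p = 0.383), which corresponds to a fold of 1.03 with bounds of 0.968 and 1.10, and was -0.08 once the length and GC trend was taken out.

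Nfib (chromosome 4, 82290173 to 82705750) had the most counts of the members, at 578 and 539 CPM in unirradiated A and B and at 625 and 608 CPM in irradiated A and B. The spread within the unirradiated group was larger than the distance between unirradiated A and irradiated B. The log2 fold change of 0.14 (SE 0.0405, edgeR adjusted p = 0.00196) did not pass without unirradiated B (0.10) and was -0.16 once the length and GC trend was taken out. Of 11 partners and coactivators of STAT5 listed, 7 (63.6%) were higher and 3 (27.3%) lower (median log2 fold change 0.40), beside 33.9% and 32.5% of all tested genes. Nfia, another nuclear factor I gene, fell from 83.9 ± 0.174 to 51.3 ± 1.18 CPM (-0.71). Cebpb, a bZIP factor of milk gene promoters, rose from 396 ± 70.0 to 646 ± 32.9 CPM (0.70), and Hsd11b1, whose enzyme regenerates active glucocorticoid, rose from 1.55 ± 0.0896 to 5.25 ± 0.744 CPM (1.73). Ncoa3, a coactivator, rose by 0.50 on the log2 scale.

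Cish (chromosome 9, 107296026 to 107302784), which encodes the feedback inhibitor CIS, was at 14.6 and 13.3 CPM in unirradiated A and B and at 25.2 and 22.9 CPM in irradiated A and B. The groups were clearly apart. The rise was 1.70-fold with a 95% interval of 1.46 to 1.99 (log2 fold change 0.77, SE 0.112, edgeR adjusted p = 1.91e-08), and 85.0% of tested genes had a lower log2 fold change. With 165 to 567 counts per library, Cish had the fewest counts of the members. Its exons overlap those of 2 other gene models, the pseudogene Gm17040 and the antisense gene Gm17041, over 740 bases (11.5%), and Gm17041 was at 0 counts in every library while Gm17040 had 3 or fewer.

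Socs2 (chromosome 10, 95385362 to 95417180), whose product limits growth hormone signalling, was at 102 and 99.6 CPM in unirradiated A and B and at 107 and 113 CPM in irradiated A and B. The gap between irradiated A and unirradiated A was smaller than that between the irradiated libraries. The log2 fold change was 0.12 (SE 0.0561, edgeR adjusted p = 0.0452), just past the threshold. The call was lost under upper-quartile scaling (0.08), with the stricter filter on low counts (0.11), with DESeq2 (0.12), without unirradiated A (0.14), without unirradiated B (0.12) and without irradiated B (0.09), and the value was -0.17 and past the threshold in the other direction once the length and GC trend was taken out. Cish therefore stood at 0.206 ± 0.00961 of the level of Socs2 per kilobase in the unirradiated and 0.326 ± 0.0352 in the irradiated libraries (SD, n = 2).

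**Figure D3:**
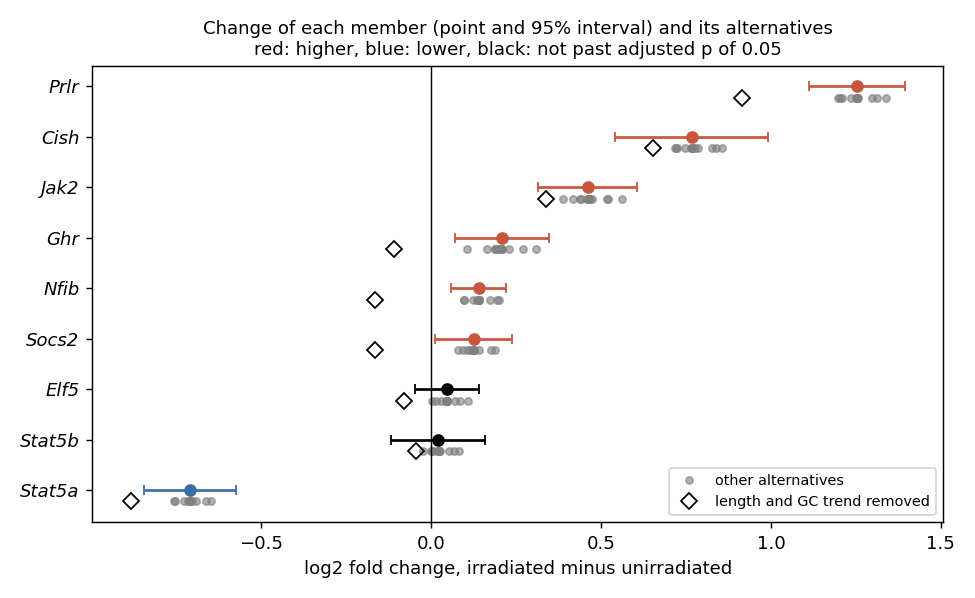
Log2 fold change of each member, irradiated minus unirradiated, as a point with its 95% interval, with grey points for the other alternatives and an open diamond for the fit with the length and GC trend removed. Prlr, Cish and Jak2 stay above 0 and Stat5a below 0 under every setting shown, whereas the diamonds of Ghr, Nfib and Socs2 lie below 0.

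Among the other genes listed as inhibitors of the pathway, 11 of 17 were higher and 4 lower (median log2 fold change 0.38). Of all tested genes 33.9% were higher and 32.5% lower. Socs5 rose from 39.6 ± 2.62 to 116 ± 0.118 CPM (1.54) and Cav1, the caveolin gene, from 9.55 ± 0.920 to 21.3 ± 0.281 CPM (1.15). The phosphatase gene Ptpn11, listed here although its product can also promote prolactin signalling, rose from 97.4 ± 4.47 to 165 ± 0.531 CPM (0.76). Socs1, a strong inhibitor of JAK2 and of interferon signalling, fell from 22.4 ± 0.568 to 7.66 ± 0.563 CPM (-1.56). Feedback genes of the SOCS family thus moved in both directions, Cish and Socs5 up and Socs1 down, and the values of these 3 changed sign under none of the 14 alternatives. Among these, the threshold of 0.1 and the test against a 1.5-fold change reuse the main values and could not change a sign.

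Compared per kilobase of gene length, Nfib and Elf5 had the highest levels of the members and Prlr and Cish the lowest in both groups. Because this length counts all annotated exon bases, the order between genes is approximate. For Cish the 6419 bases counted fill most of its span from 107296026 to 107302784, so its level per kilobase may be understated. In the unirradiated libraries the order of mean levels was Nfib (37.3 ± 1.85 CPM per kilobase), Elf5 (35.9 ± 1.18), Socs2 (10.6 ± 0.153), Stat5a (10.3 ± 0.474), Stat5b (9.72 ± 0.262), Jak2 (8.66 ± 0.756), Ghr (6.23 ± 0.119), Prlr (2.45 ± 0.109) and Cish (2.17 ± 0.133; SD, n = 2 for each). Ranges of neighbours overlapped for Nfib with Elf5 and for Socs2 with Stat5a. In the irradiated libraries Nfib (41.2 ± 0.804) and Elf5 (37.0 ± 0.387) again led, Jak2 (12.0 ± 0.483) came after Nfib and Elf5, and its range overlapped that of Socs2 (11.5 ± 0.456), followed by Stat5b (9.91 ± 0.317), Ghr (7.13 ± 0.700), Stat5a (6.30 ± 0.0304), Prlr (5.84 ± 0.416) and Cish (3.74 ± 0.256). Prlr and Stat5a, far apart in the unirradiated group, were thus neighbours in the order of the irradiated group.

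**Figure D4:**
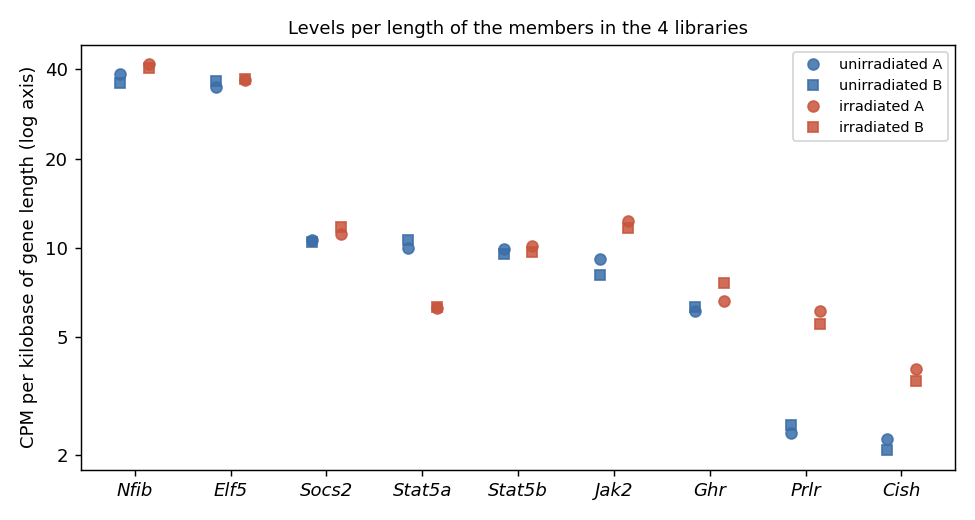
Level of each member per kilobase of gene length in the 4 libraries, on a log axis, with blue for unirradiated, red for irradiated, circles for A and squares for B. The points of Stat5a and Prlr lie far apart in the unirradiated libraries and close together in the irradiated ones.

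Milk genes moved unevenly, and whether they did so through this pathway was not tested. Of 22 milk protein and milk fat genes 13 were higher and 4 lower (median log2 fold change 0.75), beside 33.9% and 32.5% of all tested genes. Csn2, Csn1s2a, Btn1a1 and Csn1s1 had the largest changes, with log2 fold changes of 7.73, 7.29, 4.97 and 3.00. Csn1s2a had 3 counts in the unirradiated and 711 in the irradiated libraries, a ratio of 167 after scaling for depth with an exact 95% counting interval of 56.8 to 810.1. Wap, encoding whey acidic protein, was at 12.0 ± 0.286 and 18.0 ± 2.59 CPM (0.56), and Lalba, encoding alpha-lactalbumin, at 85.5 ± 0.119 and 107 ± 1.75 CPM (0.32). Csn3, encoding kappa-casein, fell from 5791 ± 48.7 to 3203 ± 102 CPM (-0.85). Once the length and GC trend was taken out the log2 fold changes of Wap and Lalba were 1.15 and 0.96. That of Btn1a1 was 5.62 without unirradiated A and 4.64 without unirradiated B. Wap, Lalba and Csn3 were chosen after their values were seen.

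STAT5 targets outside milk synthesis also went both ways, 7 of 18 (38.9%) being called higher and 8 (44.4%) lower. The background over all tested genes was 33.9% and 32.5%, so calls in both directions do not set this list apart. Its median log2 fold change was -0.0096, close to the background value of -0.0042. Igf1, a growth factor gene induced by growth hormone, rose from 2.19 ± 1.25 to 12.5 ± 0.840 CPM (2.58), Igfbp5 from 1115 ± 3.56 to 6572 ± 295 CPM (2.56) and Ccnd1, encoding cyclin D1, from 83.1 ± 5.21 to 235 ± 9.22 CPM (1.49). The lowest log2 fold change of the list was that of Socs1 (-1.56), which is also among the inhibitors above. The survival gene Bcl2l1 had a log2 fold change of 0.34, the kinase gene Pim1 one of -0.69 and Bcl6, which STAT5 represses, one of -0.77. These last 3 were chosen after their values were seen. Without unirradiated B the log2 fold change of Igf1 was 3.23, and without unirradiated A it was 2.01.

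Regulators of the alveolar and luminal lineage were split as well, with 7 of 16 tested higher, 8 lower and a median of 0.27. Pgr, the progesterone receptor gene, rose from 0.40 ± 0.109 to 7.23 ± 0.579 CPM (4.1), Esr1, the estrogen receptor gene, from 1.05 ± 0.225 to 5.59 ± 0.259 CPM (2.42), Wnt4 from 1.03 ± 0.0266 to 7.0 ± 0.885 CPM (2.78) and Aldh1a3 from 8.0 ± 1.95 to 62.2 ± 2.47 CPM (3.00). Gata3, a luminal master regulator, had a log2 fold change of -0.78 and Id2 one of -1.79, both chosen after their values were seen. Of 12 tested cytokine receptor genes that can also signal through STAT5, 4 (33.3%) were higher and 2 (16.7%) lower (median 0.22). The share called higher was near the background of 33.9%, and the share called lower was under that of 32.5%. Il4ra rose from 29.0 ± 0.701 to 62.4 ± 3.80 CPM (1.10) and Csf2rb2 by 1.18 on the log2 scale, Il2rb fell by 1.03 on the log2 scale, and Epor, at 0.590 ± 0.262 and 1.58 ± 0.235 CPM (1.31), lost its call without unirradiated B (0.99), without irradiated A (1.2) and with DESeq2 (1.38), and was 1.92 without unirradiated A. The call of Il2rb was lost with DESeq2 (-1.06). Csf2rb2 has a near-identical neighbouring paralogue, and its counts are uncertain.

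**Figure D5:**
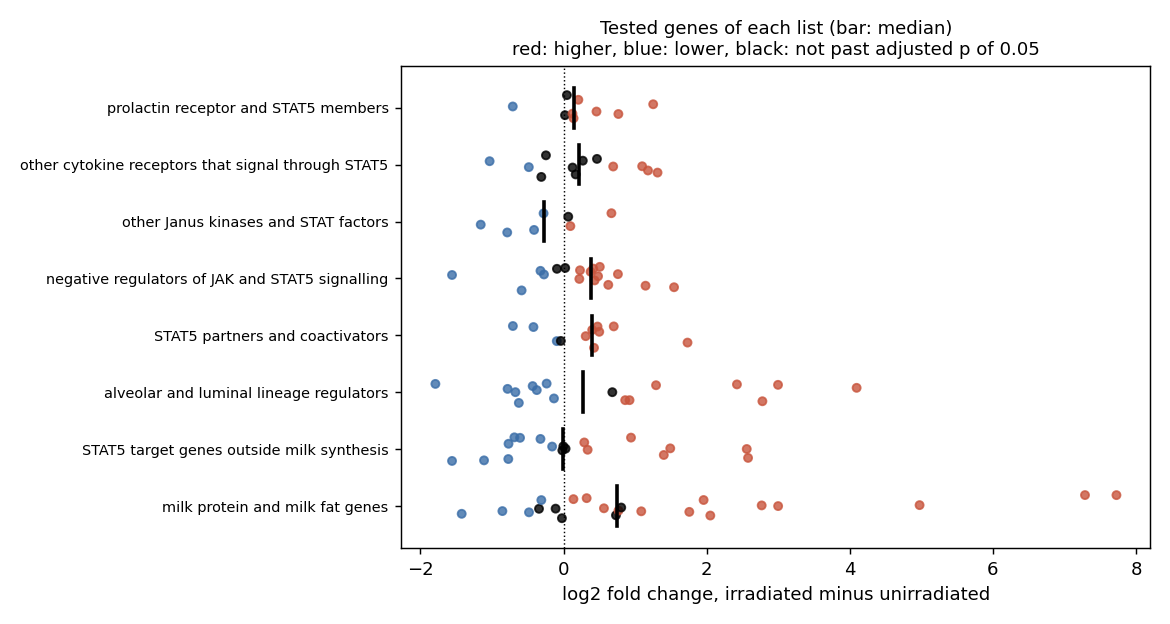
Log2 fold change of the tested genes of each list, with red for higher, blue for lower and black for genes that did not pass, and a bar at each list's median. Each of the groups of genes plotted, which leave out the cell type markers, holds genes on both sides of 0, and among them the milk genes span the widest range.

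Markers of several cell types moved with these changes, and their part in them was not tested. Their counts of calls stand beside 33.9% higher and 32.5% lower of all tested genes. Prlr and Elf5 are known from luminal epithelium and Ghr from fibroblasts and fat cells. Of 10 epithelial markers 3 were higher and 6 lower (median log2 fold change -0.17), and Epcam was at 1211 ± 14.1 and 1107 ± 31.1 CPM (-0.13, turning to 0.20 once the length and GC trend was taken out). Of 12 fibroblast markers 10 were higher and 0 lower (median 1.61), among them Pdgfra at 5.59 ± 0.223 and 23.7 ± 1.17 CPM. The 8 macrophage markers were all higher, from a sum of 244 ± 0.791 to 674 ± 6.08 CPM, as were the 7 endothelial markers, from 60.1 ± 2.25 to 153 ± 8.28 CPM. Basal markers summed to 342 ± 1.37 and 444 ± 0.0247 CPM, with 4 of 7 higher and 1 lower. The 8 adipocyte markers summed to only 15.8 ± 0.221 and 14.7 ± 0.190 CPM, with the defining genes Adipoq and Plin1 too low to be tested. Of the 4 adipocyte markers tested, 1 was higher and 1 lower. T and NK cell markers summed to 8.83 ± 0.248 and 4.01 ± 0.195 CPM, with 0 of 5 tested higher and 3 lower. B and plasma cell markers summed to 8.91 ± 1.15 and 8.16 ± 0.0201 CPM. These near-equal sums hide opposite changes, with 1 of 4 tested higher and 3 lower (log2 fold changes from -7.64 to 2.94). The pan-leukocyte gene Ptprc was at 12.4 ± 0.985 and 18.5 ± 0.230 CPM.

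The genes whose values over the 4 libraries were most like those of a member were found as the 5 with the smallest root mean square difference in log2 CPM, after centring each gene on its mean, among genes with a mean within a factor of 2. For Prlr these were Cdon, Inhbb, Plod2, Epha7 and Lpgat1 of 4779 genes compared, with differences from 0.0247 to 0.0488 and log2 fold changes from 1.23 to 1.33. For Elf5 they were Gfpt1, Slco2a1, Gtf2i, Kif1c and Syngr2 of 1630, with differences from 0.00530 to 0.0113 and adjusted p from 0.265 to 0.562 by edgeR. Over 4 libraries such a likeness describes the values only.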

How the data were processed

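Poly(A) RNA of 4 libraries was sequenced with a non-directional library kit, per the labels' protocols. The authors deposited raw read counts per gene, 1 file per library. Reads were handled with STAR 2.5, HTSeq 0.6.1 and DESeq2 on mm10, per the submitters' processing notes, and for their settings and annotation release the sources used here give nothing. Of 54532 gene IDs, 54495 matched GENCODE M21, which gave exons and GC content. Counts were filtered with filterByExpr, scaled by TMM and tested with edgeR 4.0.16 (glmQLFit and glmQLFTest, R 4.3.3) without covariates, with Benjamini-Hochberg adjustment over 15961 genes. Intervals are 95% from the moderated t distribution. DESeq2 1.42.0 and 13 other alternatives were run. The test was tried on simulated counts. Levels between genes are CPM per kilobase of the deposited gene length, which for each member equals its annotated exon bases in GENCODE M21. Values of libraries A and B of a group differed by more than counting noise, with a median chi-square of 2.11 and 2.14 times its expected value. No label gives a batch, so a batch and the treatment cannot be told apart.

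Genes were named by a rule: all members, the 4 called genes of each list with the largest absolute log2 fold change and a mean of at least 1 CPM, the 5 genes most like Prlr and Elf5, and the markers. Genes outside it are said to be so where they stand. Of the genes that the rule names, 1 is not reported here. The ratios between members were chosen after their values were seen. The members and lists were chosen with earlier results of these data known.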

Additional observations from a re-analysis of the deposited data

How the results depend on the processing

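With 2 libraries a group, the spread rests on 2 residual degrees of freedom and on the variance shared across genes. Of the members, Prlr (log2 fold change 0.91 to 1.34) and Stat5a (-0.88 to -0.65) kept their direction and call under all 14 alternatives, and Jak2 (0.34 to 0.56) and Cish (0.65 to 0.86) lost theirs only in the test against a 1.5-fold change. Of 126 values for members, 105 kept direction and side of the threshold, 15 fell short of it and 6 changed sign. Of 532 for 38 other named genes, 507 kept both, 23 fell short and 2 changed sign. Some of these outcomes were fixed in advance. The threshold of 0.1 and the test against a 1.5-fold change reuse the main log2 fold changes, so no sign could change there. A threshold of 0.1 also could not remove a call.

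Against a 1.5-fold change, 1 member and 2032 of all genes were higher and 1754 of all genes lower, the wider null being the cause by construction. With the length and GC trend removed, 3 members were higher and 3 lower, beside 5235 and 4790 of 15961 genes, and the log2 fold changes that changed sign were -0.11 for Ghr, -0.044 for Stat5b, -0.080 for Elf5, -0.17 for Socs2, -0.16 for Nfib, -0.11 for Stat3 and 0.20 for Epcam. Upper-quartile scaling gave -0.023 for Stat5b. The cause was not tested. Leaving out 1 library at a time gave 4 to 6 members higher and 1 lower, and a group left with 1 library was assumed to vary like the other.

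The letters A and B are shared between the groups, but nothing says that they pair libraries (correlation of deviations 0.0116 over genes). With the letter as a replicate block, 5418 genes were higher and 5200 lower, beside 5409 and 5184 without it, and 6 members were higher and 1 lower.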
